A study of Mus musculus with 6 samples.

Results

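The dystrophin-associated protein complex was examined through 8 of its genes, Dmd, Utrn, Dag1, Sgca, Sgcb, Sgcd, Sspn and Dtna, chosen by symbol for their place in the complex, out of 20954 protein-coding genes that the annotation of NCBI Build 37 (mm9) and RefSeq share. Sox6 peaks in or within 20 kb of each gene were collected, and Sox6, RNA polymerase II (Pol II) and input reads were counted at each annotated coding start and over the gene body. The 8 genes have 22 annotated coding starts in all, between 1 in Sgcb and Dag1 and 4 in Utrn and Dtna.

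Dystrophin and its relative utrophin are rod-shaped proteins that bind actin filaments under the muscle membrane. They attach to the transmembrane protein dystroglycan, whose sugar chains bind laminin outside the cell, and the sarcoglycans and sarcospan hold this link in place, while dystrobrevin and the syntrophins carry signalling proteins to it. Loss of dystrophin causes Duchenne muscular dystrophy and loss of single sarcoglycans causes limb-girdle muscular dystrophies.

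Chromatin came from C57BL/6 wild-type myotubes. Primary myoblasts of fetal limb muscle (E18.5), labelled as passages 17, had been kept for 48 hours in differentiation medium with 2% horse serum, and Sox6, Pol II or no antibody (input) was used in 2 independent experiments each. All 6 libraries are of this 1 genotype and time, so every comparison is of an immunoprecipitation with input, and no value below measures what Sox6 does to a gene. How many animals gave the cells is not given in the sources used here.

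Libraries held 2985437 and 1468604 mapped reads for Sox6, 1538757 and 2762155 for Pol II, and 21973495 and 24249850 for input. Mapped reads spanned 36 bp in input replicate 1 and 39 bp in every other library, and the effect of this was not tested. Levels are given as RPM, reads scaled to 1000000 mapped reads of the library. A window of 1 kb therefore held few ChIP reads, and every count below is printed with this in mind. The cells carried Pol II at muscle genes: of the 13 myotube markers found by symbol (Myog, Myh3, Acta1 and others), all 13 were called higher than input at a start (48.4% of all genes had one called) and over the body (38.7% of all bodies), whereas 0 of 8 fibroblast, 0 of 3 endothelial, 0 of 2 smooth muscle, 0 of 2 blood and 0 of 2 adipocyte markers that could be tested were called at a start. Exceptions were 1 of 5 Schwann and neural markers and 3 of 4 myoblast and satellite cell markers, Pax7, Myf5 and Ccnb1.

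Pol II was above input over the body of all 8 genes. The log2 of Pol II over input, fitted over both replicates with limma on RPM with 0.5 reads added, was 2.98 (SE 0.15) for Sgca, 1.94 (SE 0.085) for Dag1, 1.34 (SE 0.063) for Utrn, 1.33 (SE 0.060) for Dmd, 1.03 (SE 0.12) for Sspn, 0.88 (SE 0.071) for Dtna, 0.83 (SE 0.19) for Sgcb and 0.55 (SE 0.070) for Sgcd. Adjusted p-values (limma, Benjamini-Hochberg over 18119 gene bodies, two-sided) ran from 1.58e-07 for Dag1 to 0.00451 for Sgcb. Of all gene bodies, 38.7% were called higher and 25.8% lower, and 60% of called bodies were higher. When reads within 1 kb of a deposited peak were left out of the library size, the median of all genes rose by 0.36 and this share became 72.7%, and all 8 members were still called higher. The median over the 8 was 1.18, against 0.15 over all genes.

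In that order, neighbours with overlapping replicates were Utrn and Dmd, Sspn and Dtna, and Dtna and Sgcb. The replicates of every other neighbouring pair were apart. The lowest, Sgcd, had 0.54 and 0.56 in its 2 replicates and Sgcb above it 0.73 and 0.94. Their fitted values differed by 0.28, with an SE of 0.19 for Sgcb, and the order of these 2 genes was not tested. The value of Sgcd is that of its longest coding model, whose first 199.44 kb were low in Pol II. From its second coding start on Pol II was at 1.73 and 1.78 times input, near the fitted fold of 1.78 over the body of Sgcb. Densities per length gave another picture of Dmd and Utrn. Utrn had 2.20 and 2.31 Pol II reads as RPM per kb of body and Dmd 0.901 and 0.949, but input differed as well, with 0.927 and 0.853 in Utrn and 0.385 and 0.351 in Dmd. Relative to input the 2 genes differed by 0.011 on the log2 scale.

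**Figure D1:**
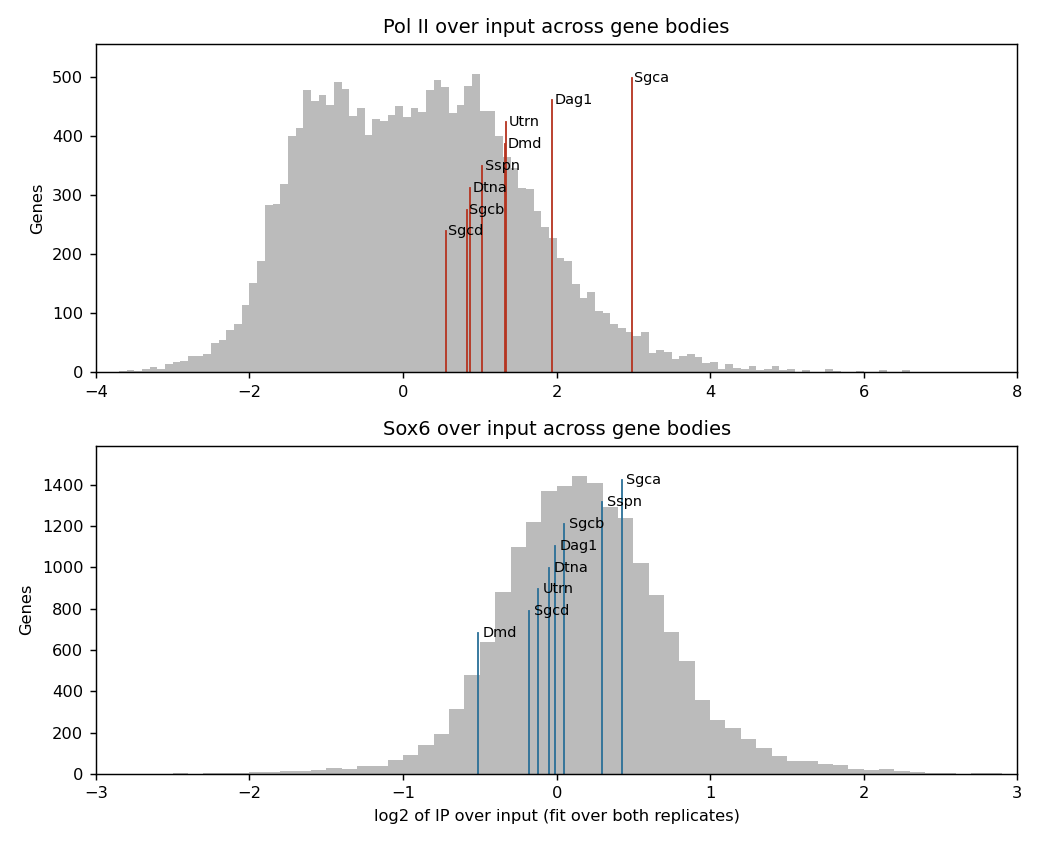
Distribution of the log2 ratio of Pol II over input (upper panel) and of Sox6 over input (lower panel) across gene bodies, with genes per bin of 0.1 on the y axis and a line for each of the 8 genes. For Pol II all 8 lie to the right of 0, from 0.55 (Sgcd) to 2.98 (Sgca), and for Sox6 they lie between -0.51 (Dmd) and 0.42 (Sgca).

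Dmd lies at chrX:80194209-82451480, plus strand, and its longest coding model, Dmd-001, spans 2257 kb with 79 exons. This model starts at 80194242 and encodes the full-length muscle dystrophin. Within 500 bp of that start Pol II gave 4 and 7 reads, or 2.60 and 2.53 RPM, against 9 and 16 input reads, or 0.410 and 0.660 RPM. The log2 ratio was 2.38 (SE 0.54, limma adjusted p = 4.98e-05). At starts limma took the variance wholly from the trend pooled over all starts, so the SE and p of a start, here and below, do not hold the spread between its own replicates, for which the reads are given. Both Pol II libraries stood above both input libraries there. Over all 25841 tested starts the median log2 ratio was 1.12. With the added reads scaled to library size (a pseudocount equal in RPM) it was 0.61, so start ratios do not centre on 0. At the coding start inside the gene, 80872600 (Dmd-201), Pol II had 2 and 2 reads and input 18 and 8, and the start was not called (log2 1.16, adjusted p = 0.21). It was called with 2 reads added (log2 1.66), where 80.5% of all starts were, with 1000 bp on each side (1.81), where 38% were, or without Pol II replicate 2 (1.58), where 50.9% were. The third coding start, 82293752, belongs to models near the 3′ end that encode the short dystrophin known from non-muscle cells, where Pol II gave 1 and 2 reads and input 1 and 4, too few to be tested. With the starts of all transcript models, a choice made after the annotation was seen, 2 further internal Dmd starts were called, 81321988 (Pol II 1 and 9 reads, input 8 and 7) and 82018050 (3 and 7 against 13 and 11), both of them inside a body that carries Pol II throughout. That fit called 15681 starts over all genes and 16 of the members. The share of its starts that were called is not given here, so the 2 calls have no background beside them.

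The sequence before the muscle start is shown because Pol II was found there. It covers 250 bases before the start to 50 after it, chrX:80193992-80194291 of Build 37, plus strand. Capitals mark the match to the CArG box, the site that serum response factor binds, which begins 131 bases before the start.
Dmd muscle start: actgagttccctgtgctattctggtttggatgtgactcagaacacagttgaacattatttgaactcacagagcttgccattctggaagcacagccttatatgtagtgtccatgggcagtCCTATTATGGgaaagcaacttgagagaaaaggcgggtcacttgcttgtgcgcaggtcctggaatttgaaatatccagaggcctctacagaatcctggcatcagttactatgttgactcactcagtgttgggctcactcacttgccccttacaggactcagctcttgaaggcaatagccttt
It had 46.7% GC, below the median of 53.7% over 31305 such windows. A CArG box is held by 1.52% of those windows. The E-box CAGCTG, searched on both strands like every other motif here, was not in it and is held by 16% of all windows. The E-box CAGGTG (20.9% of windows), the letters GGAATG (13.8%) and the letters ACAAAG (18.52%) and ACAATG (11.6%), which Sox proteins bind, were also not in it.

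Along Dmd, Pol II rose from the 50 kb before the muscle start to the 50 kb after it and thinned toward the 3′ end. In bins of 50 kb, the last bin upstream of the start had a Pol II to input ratio (RPM over RPM) of 0.429 and 0.493 in replicates 1 and 2, and the first bin inside the gene 4.50 and 4.89, the highest of the gene in both. Of 46 bins counted from the start, the ratio was above 1 in 46 and 45, the exception being the last, 2250 to 2300 kb, most of which lies past the end of the gene (1.04 and 0.949). Summed over stretches, the ratio was 3.38 and 4.03 from 0 to 550 kb, 2.56 and 2.76 from 550 to 1150 kb, 1.75 and 2.15 from 1150 to 1700 kb, and 1.43 and 1.64 from 1700 to 2300 kb. Each stretch held at least 500 Pol II reads in each library. The flanks of 200 kb had 0.39 and 0.418 upstream and 0.36 and 0.315 downstream. Both replicates fell at each step and neither flank overlapped any stretch.

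**Figure D2:**
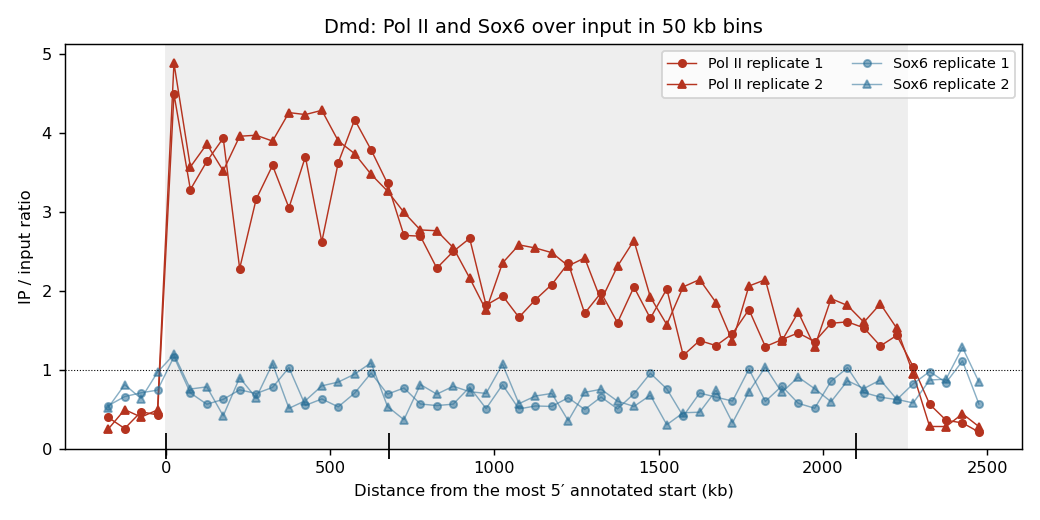
Ratio of Pol II and of Sox6 to input, in RPM, in bins of 50 kb along Dmd and 200 kb on each side (x axis, distance from the first annotated start in kb; y axis, linear ratio; shading, the gene; ticks, coding starts). Pol II rises from below 0.5 to 4.50 and 4.89 in the first bin of the gene, declines along the gene in both replicates and drops below 0.6 past its end. Sox6 is at 1.167 and 1.197 in the first bin, its highest ratio in the gene in both replicates though close to other bins in replicate 2, and at 0.708 and 0.758 in the next.

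The fall in Pol II from the first to the last 25% of Dmd was large among long genes. It was not divided by gene length, so it is not a slope per kb. For the 614 genes of at least 100 kb whose body was called higher and with at least 20 input reads in each end, the log2 of the Pol II to input ratio in the first 25% of the longest coding model over that in the last 25% had a median of -0.13 (quartiles -0.50 and 0.12). Dmd had 1.21 and 1.25 in its 2 replicates, rank 7 of 614. Utrn had 0.35 and 0.21, Dtna -0.060 and -0.37, and Sgcd -2.50 and -2.35.

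Dmd also stood high for its size. Over genes of at least 100 kb the median body log2 ratio of Pol II was -0.59, and Dmd was at rank 162 of 2296. Among the 48 genes of at least 1000 kb the median was -1.56, 42 were called lower than input and 5 higher, and Dmd had the highest value, 1.33, followed by Prkg1 with 0.94 and Cdh13 with 0.64. Sgcz, the zeta-sarcoglycan gene of 1139 kb, had -1.90. Most like Dmd over its 4 ratios (start and body in each replicate) among 1978 genes of at least 100 kb were Lpar1, Tbc1d1 and Rb1, at Euclidean distances of 0.265, 0.291 and 0.292 on the log2 scale. These are much shorter, 118.37, 192.03 and 130.32 kb.

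Utrn, the autosomal relative of Dmd, which is enriched at the neuromuscular junction of mature fibres, lies at chr10:12101986-12589163, minus strand. Pol II was called at all 4 of its coding starts. The most upstream, 12589163 (Utrn-204), had 7 and 14 Pol II reads (4.55 and 5.07 RPM) against 9 and 15 input reads (0.410 and 0.619 RPM), a log2 ratio of 3.27 (SE 0.47, limma adjusted p = 3.41e-11). At 12581533 (Utrn-202) it was 6 and 9 against 29 and 30 reads, at 12533337 (Utrn-203) 7 and 7 against 14 and 21, and at 12334432 (Utrn-201) 8 and 8 against 18 and 15, with log2 ratios of 1.55, 2.25 and 2.49. The last 3 lie inside the transcribed body, whose own ratio was 1.34. Medians over all starts and over all bodies were 1.12 and 0.15, so the 2 kinds of ratio do not share a baseline. Pol II passing through cannot be told apart from Pol II starting at these 3. The call at 12533337 was lost with 250 bp on each side (log2 1.44, adjusted p = 0.086).

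Printed below is the same window of 300 bases at the most upstream start, chr10:12589114-12589413, on the minus strand and so in the direction of the gene. The capitals mark a CAGGTG letter match 145 bases before the start and the Sox letters ACAAAG 41 bases before it.
Utrn upstream start: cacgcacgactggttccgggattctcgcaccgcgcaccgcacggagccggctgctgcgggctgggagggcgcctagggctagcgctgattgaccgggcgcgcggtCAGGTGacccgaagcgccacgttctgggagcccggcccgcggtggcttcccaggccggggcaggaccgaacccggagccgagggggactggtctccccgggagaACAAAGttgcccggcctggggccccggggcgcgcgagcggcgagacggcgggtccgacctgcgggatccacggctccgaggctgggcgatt
With 74.7% GC it exceeded 95.7% of all start windows, and it held 41 CpG dinucleotides against 2 in the Dmd window. No CArG box was in it. The start window of Dag1 (70.0% GC) and that of the third Dmd start (67.3%) were also above the upper quartile of 62% over all windows. The Sgcb window had 61.7%.

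In 50 kb bins Pol II on Utrn ranged from 1.83 to 3.02 times input in replicate 1 and 2.33 to 3.44 times in replicate 2, highest in the first bin in both. The last stretch, 350 to 500 kb, still had 2.17 and 2.47 and the first 2.87 and 3.06. Downstream of the gene the ratio was 0.422 and 0.269. The upstream flank, which holds the genes Stx11 and Sf3b5, had 0.871 and 0.746. Compared with Dmd, the total fall along the gene was small, but the longest model spans 479.5 kb in Utrn and 2257 kb in Dmd. Neither fall was divided by length, and the 2 genes were not tested against each other.

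Dag1, which encodes dystroglycan, the membrane protein that joins dystrophin to laminin, lies at chr9:108108286-108166255, minus strand. At its 1 start it had 4 and 10 Pol II reads (2.60 and 3.62 RPM) against only 4 and 4 input reads (0.182 and 0.165 RPM). The log2 ratio of 4.10 (SE 0.71, limma adjusted p = 5.94e-08) was the highest of the 20 tested starts and rests on 22 reads. The rank depends on the window. With 1000 bp on each side the ratio was 2.99, below 3.24 at the most upstream Utrn start, and with 250 bp it was not tested. Its body had 246 and 458 Pol II reads against 934 and 1030 input reads, a precise ratio, and ranked 1809 of 18119.

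Sgca, alpha-sarcoglycan, which is found in striated muscle, had the highest body ratio of the complex. Its 13.5 kb at chr11:94824105-94837641, minus strand, held 103 and 158 Pol II reads in the body against 164 and 201 input reads, or 5.34 and 4.56 against 0.595 and 0.661 RPM per kb. This put it at rank 472 of 18119. The most upstream annotated start, 94837641, had 0 and 3 Pol II reads against 16 and 14, and was not called (log2 -0.06, adjusted p = 0.97). Starts 94834803 (8 and 12 against 16 and 13) and 94831990 (14 and 16 against 19 and 19) were called with log2 ratios of 2.95 and 3.15. Both lie inside the gene, whose body ratio was 2.98, and Pol II passing through cannot be told apart from Pol II starting there. The first 2.84 kb, between the first and second start, had 2.42 and 1.79 times input, and the 10.7 kb from the second start to the end 10.2 and 7.89 times. Hils1, a gene on the other strand, lies inside Sgca, and ChIP reads do not say which strand was transcribed.

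Sgcb, beta-sarcoglycan, at chr5:74023988-74038983, minus strand, had 3 and 7 Pol II reads at its start against 10 and 14 input reads (log2 2.22, SE 0.57, limma adjusted p = 0.00032). Its body held 22 and 50 Pol II reads, the fewest of the 8.

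At Sgcd, delta-sarcoglycan, Pol II reads differed among the annotated starts. Models reach from 46709755 to 47802471 on chr11, minus strand, over 1093 kb. At the most upstream coding start, 47392467, Pol II gave 0 and 0 reads and input 4 and 3, too few to be tested. The second coding start, 47193024 (Sgcd-002), had 3 and 13 Pol II reads against 16 and 14 (log2 2.31, SE 0.49, adjusted p = 1.03e-05), with more in replicate 2 (4.71 RPM) than in replicate 1 (1.95). At the third, 47168875, counts were 2 and 4 against 15 and 12 (log2 1.43, adjusted p = 0.051). It was called under 8 of the 13 alternatives that gave a value, among them those without Pol II replicate 1 or 2, where 46% and 50.9% of all starts were.

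The bins set the first coding start apart from the others, while the second and the third fall in the same bin. All 12 bins in the first 600 kb of the Sgcd models had ratios under 0.7 in both replicates, and the bin from 600 to 650 kb, where Sgcd-002 begins, had 1.93 and 2.51. Between the first and second coding start, 199.44 kb, Pol II was at 0.258 and 0.253 times input, and from the second start to the gene end, 483.27 kb, at 1.73 and 1.78 times. These replicates did not overlap. The body value of 0.55 for Sgcd includes this stretch low in Pol II, between the first and second coding start, since it was taken over the longest coding model.

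The window at this second start, chr11:47192975-47193274 on the minus strand, is shown because Pol II was called there and was low in the stretch before it. The bins of 50 kb do not place the rise more finely. Capitals mark the Sox letters ACAAAG, 243 bases before the start, and ACAATG, 235 bases before it. The other searched motifs had no match. Sox6 had 1 and 2 reads at this start against 16 and 14 of input and was not called (log2 0.46, limma adjusted p = 0.84).
Sgcd second start: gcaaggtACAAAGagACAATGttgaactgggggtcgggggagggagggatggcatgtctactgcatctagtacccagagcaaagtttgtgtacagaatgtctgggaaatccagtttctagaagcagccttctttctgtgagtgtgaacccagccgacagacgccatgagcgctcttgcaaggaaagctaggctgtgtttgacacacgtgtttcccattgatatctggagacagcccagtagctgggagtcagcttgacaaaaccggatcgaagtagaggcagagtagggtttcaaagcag
Its GC content was 50.7%.

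Sspn encodes sarcospan, a small membrane protein that binds the sarcoglycans, and lies at chr6:145880161-145913743, plus strand. Its first annotated start, 145880161 (Sspn-002), had 0 Pol II reads in both libraries and 20 and 27 input reads. A count of 0 over both libraries allows up to 0.698 RPM (3 counts over the group, counting error only), so Pol II was at least 1.46-fold lower than input, which had 1.02. The limma fit did not call it (adjusted p = 0.0502), and 5 alternatives did, among them the fits without a Pol II library. Another was that with a pseudocount equal in RPM, where 4697 starts were called lower, against 23 in the first fit. The second start, 145882642 (Sspn-001), had 8 and 16 Pol II reads (5.20 and 5.79 RPM) against 18 and 15 (log2 2.97, SE 0.42, adjusted p = 2.05e-11), while the third, 145901949, had 3 and 4 against 24 and 21 and was not called (log2 0.95, adjusted p = 0.13), but was called with 2 reads added, with library sizes taken outside peaks (46.9% of all starts) or without Pol II replicate 2.

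The window around the second start covers chr6:145882392-145882691, plus strand. Capitals mark the letters CATTCC, the reverse complement of GGAATG, at which factors of the Tead family bind, 113 bases before the start. No Sox letters, E-box or CArG box matched.
Sspn second start: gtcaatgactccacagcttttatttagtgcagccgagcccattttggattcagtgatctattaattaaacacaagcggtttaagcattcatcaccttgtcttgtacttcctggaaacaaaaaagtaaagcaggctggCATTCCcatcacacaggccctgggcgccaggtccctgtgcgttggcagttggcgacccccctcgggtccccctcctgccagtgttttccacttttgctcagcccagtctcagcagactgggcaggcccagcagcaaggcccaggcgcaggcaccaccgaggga
It held 54.7% GC, close to the median of all windows.

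**Figure D3:**
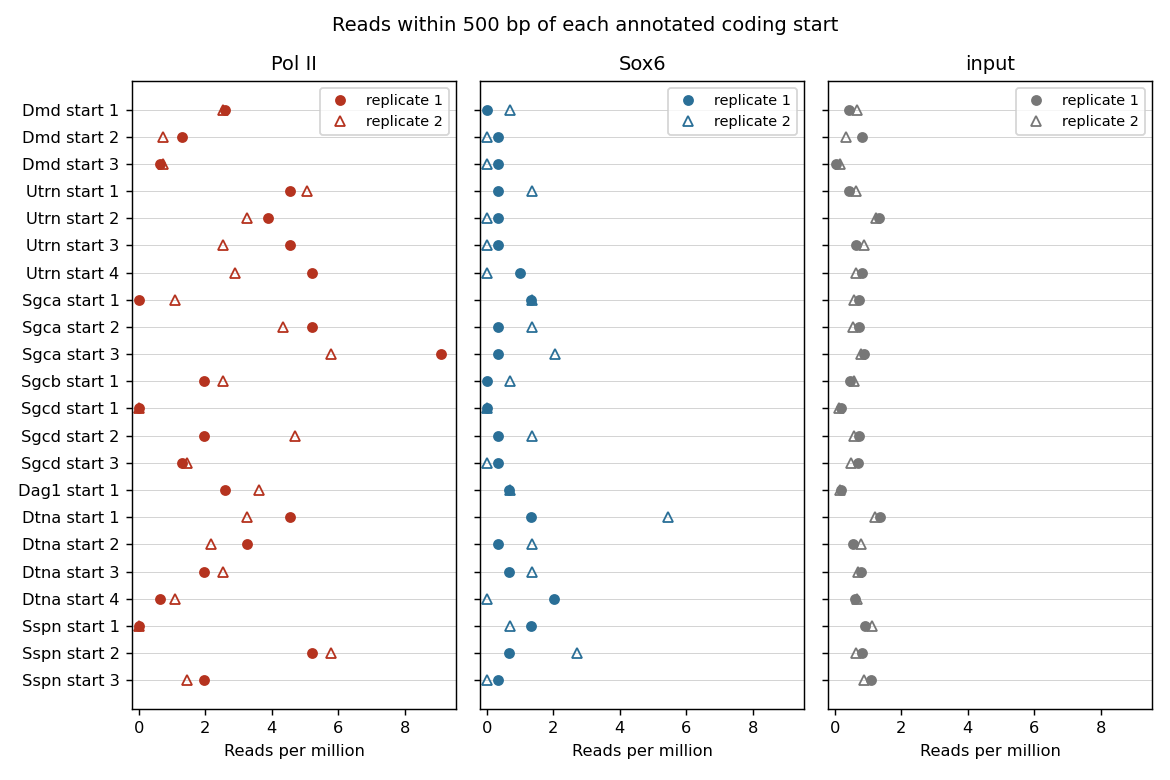
Reads per library size (RPM) within 500 bp of each of the 22 coding starts, in 3 panels for Pol II, Sox6 and input, with a filled circle for replicate 1 and an open triangle for replicate 2. Input stays below 1.4 at every start, Pol II reaches 9.10 and 5.79 at the third Sgca start and is 0 in both libraries at the first starts of Sgcd and Sspn.

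Dtna, alpha-dystrobrevin, which binds dystrophin and the syntrophins, lies on chromosome 18, plus strand, from 23573916 to 23818215. Its first start had 7 and 9 Pol II reads against 30 and 29 input reads (log2 1.66, SE 0.40, limma adjusted p = 0.00014). Starts 23655336 and 23656091 lie further in and had 5 and 6 against 12 and 19, and 3 and 7 against 17 and 17 reads. Both were called (log2 2.10 and 1.71), and their windows overlap, so they are not separate observations. They lie inside the gene, whose body ratio was 0.88, and Pol II passing through cannot be told apart from Pol II starting there. The fourth, 23760932, was not called (1 and 3 against 13 and 16 reads). In 50 kb bins the ratio was lowest in the first bin, 1.46 and 1.69, and reached 2.22 and 2.26 in others, against 0.344 and 0.397 upstream and 0.358 and 0.415 downstream of the gene.

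**Figure D4:**
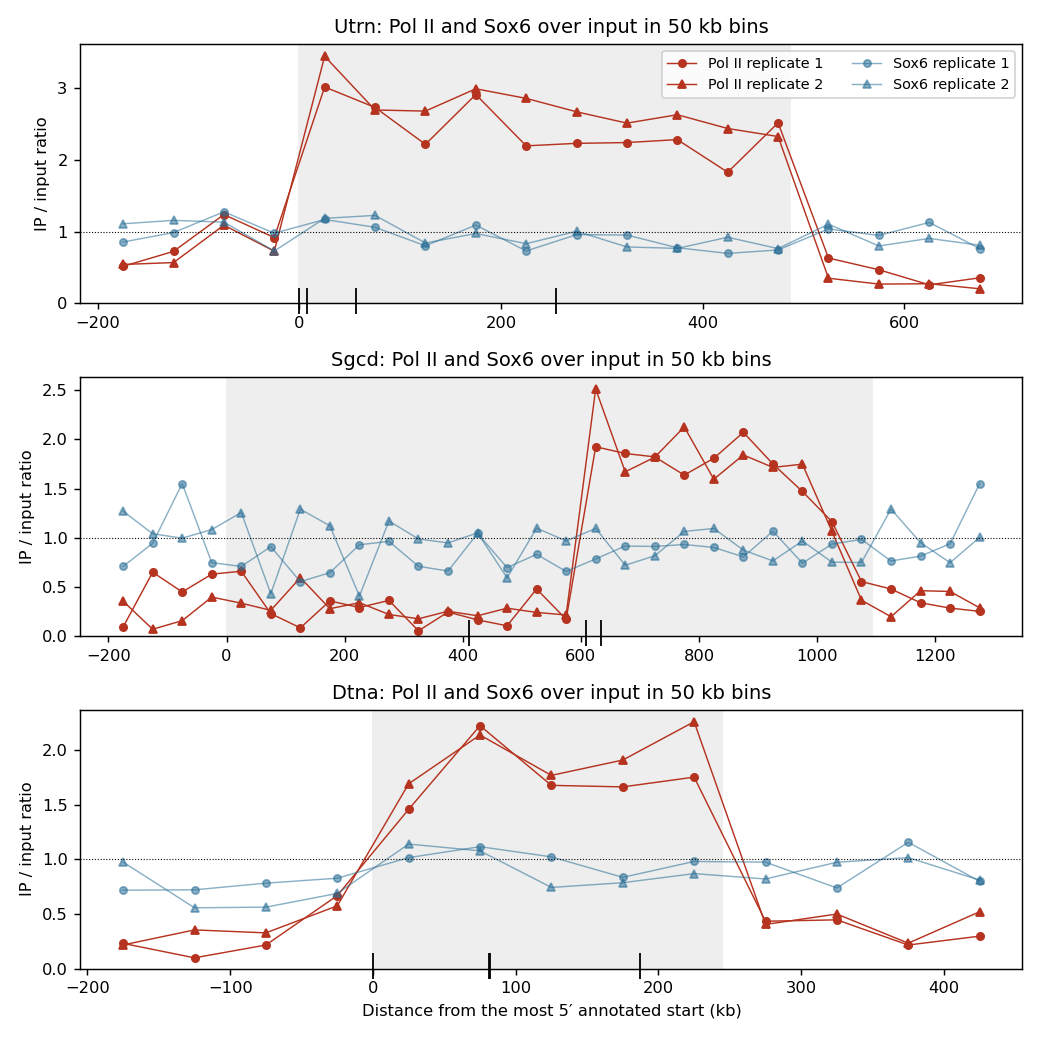
Ratio of Pol II and of Sox6 to input in bins of 50 kb along Utrn, Sgcd and Dtna and 200 kb on each side, drawn as for Dmd with its own y axis in each panel. Pol II is above 1 throughout Utrn and Dtna, and in Sgcd it is below 0.7 until about 600 kb from the most 5′ start of any model, where it rises to 1.93 and 2.51.

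Counted over starts, 14 of the 20 that could be tested were called higher for Pol II, against 41.4% of 25841 starts. Counted over genes, all 8 had at least 1 start called, against 48.4% of 18409 genes. A gene with more starts has more chances of a call. These 8 have 22 coding starts, against 31305 in 22365 coding genes, so the 2 figures are not alike. Starts of a gene share its body, so the starts are not independent. With precision weights (voom) 0 of the 20 were called and 646 starts in all, with ratios almost as before (2.34 for the muscle start of Dmd), so the calls at starts rest on the trend fit. The calls of the 8 bodies did not change with it.

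Other components of the complex gave a mixed picture. Of 9 further genes, 4 of the 8 that could be tested at a start had one called, against 48.4% of all genes. Over the body 3 of 9 were called higher and 5 lower, against 38.7% and 25.8% of all bodies. Among those called higher was Sntb1, a syntrophin, with body log2 1.51 and start 3.01. Sgce, epsilon-sarcoglycan, had a called start (4.38) and a body near input (0.05). Neighbouring genes were looked up for the 8 genes alone, so Pol II of another gene in this start window was not checked for. Called lower over the body were Sgcz (-1.90), Sntg1 (-1.74), Sntg2 (-1.58), Sntb2 (-0.69) and Dtnb (-0.59). No start of theirs was called, and Sntg2 had none with enough reads to be tested. A body called lower is lower than input and need not lack Pol II. The median over genes of at least 1000 kb was -1.56, below the values of Sntb2 and Dtnb.

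Among 10 partners of the complex, 5 of the 9 that could be tested at a start had both a start and the body called higher, against 36.3% of all genes tested at both. These were Plec, a cytoskeletal linker (body 3.69), Hspg2, the basement membrane proteoglycan perlecan (3.57), Cav3, the muscle caveolin (3.50), Sync, an intermediate filament protein that binds dystrobrevin (2.65), and Dysf, the membrane repair protein dysferlin (2.59). Nos1 (-1.18) and Lama2 (-0.46), which encodes the laminin chain that dystroglycan binds, were called lower. Of the 10 genes found from the dystroglycan glycosylation list, 9 had a called start, against 48.4% of all genes, and 6 a body called higher, against 38.7%, among them Pomt1 (1.96), Pomgnt1 (1.26), B3galnt2 (0.58) and Large (0.41). Ispd was called lower (-1.27). The other 7 listed symbols were not found.

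Pol II peaks deposited by the authors covered little of this signal. Over the whole annotated extent of each gene, the 3 and 5 peaks in Dmd (replicates 1 and 2) held 12 and 19 reads, which is 0.383% and 0.321% of its 3135 and 5923 Pol II reads. Utrn had 11 and 19 peaks with 2.68% and 4.12% of its reads. The widest of them lay just inside its most upstream start, in a peak of 621 bp in replicate 1 and one of 1941 bp in replicate 2. Sgca had 5 and 3 peaks with 5.83% and 10.6% of its reads, Dag1 3 and 6 with 3.20% and 7.13%, Sspn 0 and 3 with 9.04% in replicate 2, and Sgcd 0 and 3 with 1.62% in replicate 2. Sgcb and Dtna had none inside the gene in either replicate.

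Counts of Sox6 peaks near these genes are given beside the shares of all genes. With 8 genes they cannot be set apart from these shares. None of the 1066 common Sox6 peaks, those found in both experiments within 50 bp, lay in or within 20 kb of any of the 8 genes, nor within 50 kb. Over all genes, 4.46% had such a peak within 20 kb, and 12.5% of genes of at least 100 kb. Counting the lists of single replicates as well, 3 of the 8 had a peak (Dag1, Dtna and Sspn), against 11.8% of all genes and 30.1% of genes of at least 100 kb. Of the other lists, 1 of 9 further complex genes (Sgce) and 0 of 10 partners and 0 of 10 glycosylation genes had a common peak, and 4 of 13 myotube markers had. The common peaks had a median of 5.02 and 6.81 Sox6 RPM in 450 bp.

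In all 4 peaks lay within 20 kb, each from 1 replicate alone. Within 50 kb there were 6, the further ones lying 41169 and 45389 bp past the end of Sspn and called in replicate 1. In replicate 2 Sox6 was 7.51-fold and 3.67-fold above input there (exact binomial test, adjusted p = 0.0032 and 0.0502). Pol II log2 ratios at them were 3.48 and 3.33. The peak in Sspn, chr6:145899212-145899451, called in replicate 1, lies in the second intron of Sspn-002, 2618 bp before the third start, and overlaps a Pol II peak of replicate 2. In a window of 450 bp it had 13 Sox6 reads in replicate 1 and 1 in replicate 2, against 16 and 36 input reads. In the replicate not used to call it, Sox6 was thus at 0.459 times input (exact two-sided binomial test, adjusted p = 0.76). The peak 13149 bp past the end of Sspn, chr6:145926892-145926971, had 9 and 5 Sox6 reads and 11 and 13 input reads. It was higher than input in the other replicate too, 6.35-fold (exact binomial test, adjusted p = 0.0054), and was the 1 peak of 4 for which that held. With the deposited interval of 80 bp alone the log2 ratio was 3.31, against 2.75 in the window, but on too few reads to be called (adjusted p = 0.28).

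Upstream of Dag1, at chr9:108177552-108177851, 11446 bp before its start and with no other coding gene closer, the peak of replicate 2 had 3 and 7 Sox6 reads against 11 and 9 input reads. The other replicate was 2.01-fold above input (exact binomial test, adjusted p = 0.25), and it was called in a window of 1000 bp (adjusted p = 0.018). For comparison, 66.9% of all replicate 1 peaks and 84.4% of all replicate 2 peaks were called higher in the replicate that had not been used to find them, and 50.5% and 62.7% of those more than 50 bp from any common peak.

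These 3 peaks are shown on the plus strand as deposited. Capitals mark CATTGT, the reverse complement of the Sox letters ACAATG, and a match to GGAATG. The same motifs were searched as at the starts.
Sspn intron peak: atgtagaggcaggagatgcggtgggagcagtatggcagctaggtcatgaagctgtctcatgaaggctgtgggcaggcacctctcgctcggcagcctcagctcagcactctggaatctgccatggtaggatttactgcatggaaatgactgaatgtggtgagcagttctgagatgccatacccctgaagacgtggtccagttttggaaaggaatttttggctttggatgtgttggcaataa
Sspn downstream peak: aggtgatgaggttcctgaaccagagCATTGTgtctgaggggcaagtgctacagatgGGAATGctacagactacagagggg
Dag1 upstream peak: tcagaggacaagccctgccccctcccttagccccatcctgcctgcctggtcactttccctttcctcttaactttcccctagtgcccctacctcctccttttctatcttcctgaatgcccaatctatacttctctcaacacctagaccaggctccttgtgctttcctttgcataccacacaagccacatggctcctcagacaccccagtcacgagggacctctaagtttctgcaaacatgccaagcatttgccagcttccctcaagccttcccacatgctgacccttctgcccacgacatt
Only the downstream peak held a Sox match, and 12.9% of the 2489 Sox6 peaks of 1 replicate alone hold ACAATG in a central window of its 80 bp, and 13.2% GGAATG. Over the 300 bp of the Dag1 peak 32.3% of these peaks held ACAAAG and 30.5% ACAATG, and over the 240 bp of the intron peak 28% and 26.9%. CAGCTG, which 51.2% of them held at the length of the intron peak, was in none of the 3.

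**Figure D5:**
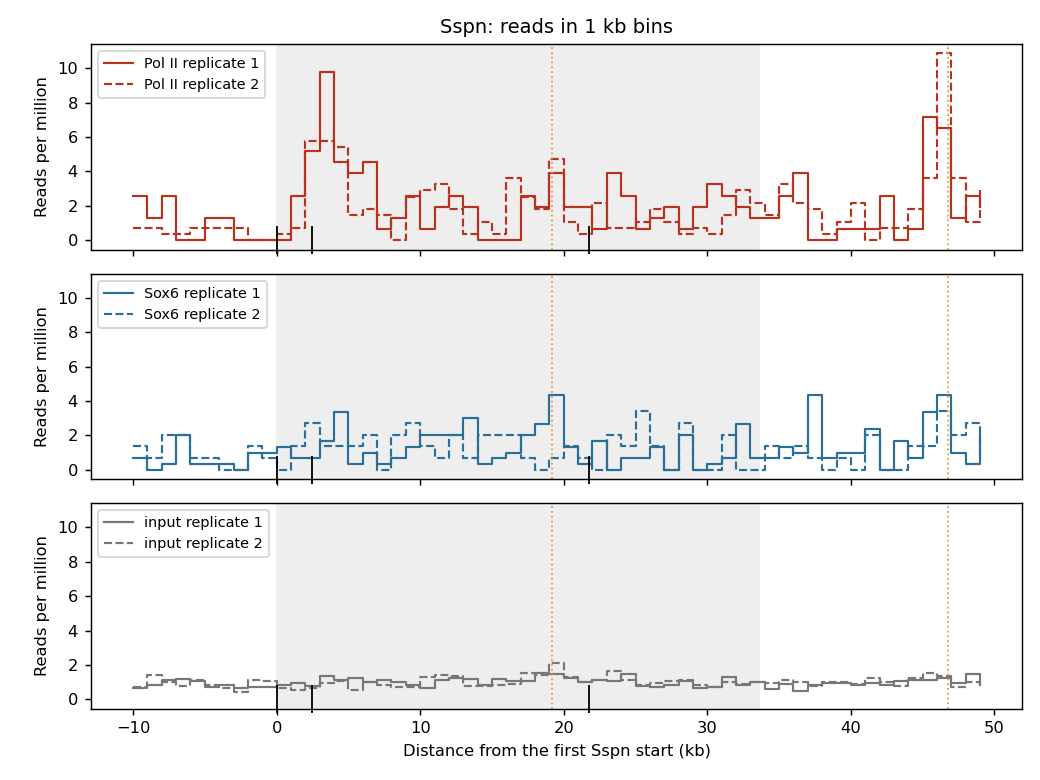
RPM in bins of 1 kb across Sspn for Pol II, Sox6 and input (x axis, distance from the first start in kb; solid line, replicate 1; dashed line, replicate 2; shading, the gene; ticks, coding starts; dotted lines, the 2 Sox6 peaks within 20 kb). Pol II rises at the second start and again beside the downstream Sox6 peak in both replicates, whereas Sox6 rises at the intron peak in replicate 1 alone.

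The fourth peak was in the second intron of Dtna, 19.3 kb after a start, in the replicate 1 list. It had 11 and 3 Sox6 reads against 9 and 16 input reads, 3.10-fold above input in replicate 2 (exact binomial test, adjusted p = 0.12). At the 4 peaks Pol II was called higher than input at 3, with log2 ratios of 2.81 (SE 0.48, limma adjusted p = 5.58e-05) downstream of Sspn, 2.23 (adjusted p = 0.0030) at Dag1 and 1.72 (adjusted p = 0.0022) in the Sspn intron, and it was 1.22 (adjusted p = 0.13) in Dtna. The Dtna peak was called with 2 reads added (1.76), with library sizes taken outside peaks (1.57), with a window of 1000 bp (1.25) and without Pol II replicate 1 (1.59). Of the 5648 entries of the 3 Sox6 lists, in which common sites recur, 54.9% were called, and of 2470 peaks of 1 replicate alone, more than 50 bp from any common peak, 52.8%. The count of 3 of 4 is too small to be set apart from these shares. Only the Sspn downstream value was called without either input library. Without input replicate 1 or 2 the Dag1 value was 2.44 and 2.02 (adjusted p = 0.056 and 0.068), and without input replicate 1 or Pol II replicate 1 the Sspn intron value was 1.22 and 1.69 (0.083 and 0.053).

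Windows of 450 bp were also read across each gene and 20 kb on either side to give the window with the most Sox6 RPM over both replicates, a description with no test. In Utrn it lay in its first intron at chr10:12536711-12537160, with 10 and 8 Sox6 reads (3.35 and 5.45 RPM), Pol II had 9 and 5 and input 20 and 23, and it overlapped a Pol II peak of replicate 1. It is in no Sox6 list. In Dag1 and Dtna it fell on the listed peak and in Sspn on the downstream peak. For Dmd the highest of 10209 windows had 3 and 6 Sox6 reads.

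At the starts themselves Sox6 was not called at any of the 20 that could be tested, either higher or lower, while 2.15% of 25957 starts were called higher (limma, adjusted). At an unadjusted p under 0.05, 3 were higher and 1 lower, against 15.3% and 0.204% of all starts, and the count of those higher is that of the background. The median Sox6 log2 ratio over all starts was 0.60, and -0.40 with a pseudocount equal in RPM. Among the 20 member starts the highest was 2.25 at Dag1 (2 and 1 Sox6 reads, 4 and 4 input reads, limma adjusted p = 0.24). The first start of Dtna had 4 and 8 Sox6 reads (1.34 and 5.45 RPM) against 30 and 29 of input (log2 1.19, limma adjusted p = 0.16). Replicate 2 alone carried this value, which was 0.21 without it and 2.16, and called, without replicate 1 (adjusted p = 0.00059). With 2 reads added, 6 were called, against 53.1% of all starts in that fit. Without Sox6 replicate 1 it was 9, against 38.2% of all starts, and without replicate 2 it was 2, against 12.9%. The Utrn-202 start, with 1 and 0 Sox6 reads against 29 and 30 of input, was called lower without replicate 1 (log2 -1.93, limma adjusted p = 0.0034) and without replicate 2 (-1.37, adjusted p = 0.035), where 2.02% and 4.49% of all starts were. The muscle start of Dmd had 0 and 1 Sox6 reads (0 and 0.681 RPM), and weak binding was not detectable at this depth.

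Over gene bodies Sox6 was near input for 7 of the 8 genes. Log2 ratios ran from -0.18 (Sgcd) to 0.42 (Sgca), and none was called higher, against 5.57% of 18137 bodies. Without Sox6 replicate 1, 2 were called higher (Sgca 0.68 and Sspn 0.31), where 35.4% of all bodies were. Dmd was called lower (log2 -0.51, limma adjusted p = 0.017), with 1783 and 832 Sox6 reads against 19093 and 19218 input reads, while 1.85% of bodies were called lower. With a pseudocount equal in RPM the value was the same and the call was lost (adjusted p = 0.061). The 4 stretches of the gene had between 0.578 and 0.779 times input, the 200 kb upstream 0.671 and 0.743, and the 200 kb downstream 0.845 and 0.952, above every stretch of the gene. In bins of 50 kb the ratio within the gene was highest in the first bin in both replicates, with 78 and 35 Sox6 reads or 1.167 and 1.197 times input, against 0.744 and 0.971 in the bin before it. In replicate 2 other bins were close, such as 600 to 650 kb with 36 reads and 1.091 times input. The first bin was noticed after its values were seen and was not tested. Long genes and genes on X were low as well: the median Sox6 log2 ratio was -0.33 over genes of at least 1000 kb, of which 54.2% were called lower, -0.30 over X-linked genes of at least 100 kb and -0.09 over all X-linked genes, against 0.17 over all genes. Chromosome X took 3.11% and 2.94% of Sox6 reads, 2.70% and 2.63% of Pol II reads, and 3.47% and 3.46% of input reads. Their part in the Dmd value was not tested.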

How the data were processed

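Sox6 and Pol II ChIP and input DNA of fetal myotubes were sequenced in 2 experiments each (Illumina GA II, single end). The authors aligned reads with Bowtie 0.12.5 to NCBI Build 37 and used SISSRs (fragment length 450 bp, matched input) to call peaks. The deposited files hold positions of mapped reads and peaks, and for Pol II peaks an unnamed score deposited by the authors, which was not used. Reads were counted here by their 5′ end with Python 3.11.15 and tested with limma 3.58.1 (R 4.3.3) on log2 RPM with 0.5 reads added, where the 4 libraries of a comparison held at least 10 reads in sum. Thresholds were adjusted p of 0.05, two-sided. Starts within 500 bp of each other were merged and windows reach 500 bp to each side; bodies run from 1000 bp after the start to the end of the longest protein-coding GENCODE model of a gene matched to RefSeq by symbol. Members and lists were chosen with earlier results of these data known. Every member, start and listed gene is named by rule: listed genes where called, and Dmd with its 3 nearest patterns. Some listed genes are counted but not reported by name here. The 4 peaks were tested with the other replicate by an exact binomial test, and sequences were read from the Build 37 genome. The fits were tested on simulated data, and alternatives in counting, filter, scaling and libraries were tried. P-values rest on 2 libraries a group, which may differ only technically, and on a variance shared with other features. At starts that shared trend was the whole variance (infinite prior degrees of freedom), and at bodies it had 6.85 prior degrees of freedom for Pol II and 6.84 for Sox6 beside 2 of the gene's own. Because ChIP libraries are shallower than input, the added reads bias ratios of low counts upward. Intervals, limits and the p-values of the binomial tests cover counting error only.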

Additional observations from a re-analysis of the deposited data

How the results depend on the processing

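All 8 gene bodies were called higher for Pol II under each of the 13 alternatives tried. Starts called higher for Pol II numbered 10693, and 20794 with 2 reads added, 3196 with at least 50 reads and 646 with voom weights, and with a pseudocount equal in RPM 63% of called starts were higher against 99.8%. Of the member starts 14 became 4 with at least 50 reads, where the others were not tested, and 0 with voom. The first Sgca start changed sign, to 1.06 with 2 reads added and 0.29 with library sizes outside peaks and with 250 bp on each side, and ran from -1.04 to 0.92 with 1 library left out. Bodies called lower for Pol II were 4677, and 2909 to 6196 with 1 library left out. Sox6 calls were unstable. Starts called higher (559) became 13784 with 2 reads added, 339 with a pseudocount equal in RPM, 2454 with no filter, 72 with at least 50 reads, 103 with voom, 331 with 250 bp, 196 with 1000 bp, 867 with starts of all models and 55 to 9673 with 1 library left out. Of the members 0 became 6 with 2 reads added and 0 to 9 with 1 library left out. The Utrn-202 start had a Sox6 log2 ratio of -1.65 and 0.30 with 1000 bp. Sox6 bodies called higher (1010) and lower (335) became 1567 higher with 2 reads added, 9 and 0 with a pseudocount equal in RPM, and 173 to 6421 and 37 to 2871 with 1 library left out, with 0 to 2 members. Titles number the experiments. The authors called peaks against the input of each experiment, and replicate ratios here set each ChIP library against the input of its number. The fits left this pairing out. With a replicate block 2605 Sox6 bodies were called higher and 1141 lower, and no other count moved by over 1.5 times. Deviations of same-numbered ChIP and input libraries correlated at -0.083 for Pol II and 0.064 for Sox6, which does not decide the pairing. At Sox6 peaks Pol II was called at 3103, and at 5104 with 2 reads added, 603 with at least 50 reads and 1639 to 3284 with 1 library left out; of the 4 peaks, 3 became 4 with 2 reads added, library sizes outside peaks or 1000 bp, 1 with at least 50 reads, and 1 to 3 with 1 library left out. Peaks called in the other replicate (1932 and 1464) were 902 and 790 in the deposited interval alone. Of 4 peaks within 20 kb, 2 lie inside a gene. The causes were not tested. Depth limits the starts, which held few ChIP reads.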
